A study of Mus musculus with 6 samples.

Results

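The genes described here are 10 genes of the canonical Wnt pathway, named by symbol in the deposited gene list of 32285 genes: the ligand Wnt3, the receptors Fzd5 and Fzd7, the co-receptors Lrp5 and Lrp6, the ubiquitin ligases Rnf43 and Znrf3, and the pathway targets Axin2, Nkd1 and Ccnd1. All 10 symbols were found, once each. Crypts were isolated from the ileum, dissociated, sorted for the epithelial surface protein EpCAM and profiled by droplet single-cell RNA sequencing in 6 libraries. The 3 Fpr2f/f libraries came from mice carrying loxP-flanked Fpr2, the gene of formyl peptide receptor 2, and are labelled WT. The 3 Fpr2VKO libraries came from the cross of that line with Villin-Cre, which drives recombination throughout the intestinal epithelium, and are labelled as the intestinal epithelial knockout. The study's methods give a C57BL/6J background and sex- and age-matched mice of 8 to 12 weeks. The study's text gives 3 mice per group for these data, and no source ties a library to a single mouse, so p-values measure the spread between libraries. The labels name no treatment. The study asked about Wnt3 in Paneth cells and about Ccnd1 in stem and transit-amplifying (TA) cells.

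Wnt ligands bind a Frizzled receptor together with Lrp5 or Lrp6. This stops the breakdown of beta-catenin, which enters the nucleus and, with TCF and LEF factors, turns on target genes. In the small intestine the pathway maintains the stem cells at the crypt base and is needed for Paneth cell maturation. Paneth cells, which release antimicrobial peptides, are the known epithelial source of Wnt3. Rnf43 and Znrf3 remove Frizzled receptors from the membrane, and Axin2 and Nkd1 dampen the signal inside the cell, so these 4 genes, themselves targets, act as feedback inhibitors. Ccnd1 encodes cyclin D1, which drives entry into the cell cycle.

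On the mouse genome build mm10 (GRCm38), by the GENCODE annotation, Wnt3 lies on chromosome 11 from 103774150 to 103817957, Fzd5 on chromosome 1 from 64730558 to 64737751 and Fzd7 on chromosome 1 from 59482424 to 59486955. Rnf43 (87662722 to 87735539), Axin2 (108920349 to 108950783) and Znrf3 (5276324 to 5444847) are also on chromosome 11. Lrp5 lies on chromosome 19 from 3584828 to 3686564, Lrp6 on chromosome 6 from 134446476 to 134566965, Nkd1 on chromosome 8 from 88521354 to 88594884 and Ccnd1 on chromosome 7 from 144929931 to 144939925. Promoter sequences are shown for the ligand and for 3 genes with their highest level in stem-like cells, to set the letters bound by the pathway's own factors beside genes that these cells share. They come from RefSeq (GRCm38.p6, plus strand for all 4), run from 250 bases before to 50 bases after the annotated start, and cover chr11:103773925-103774224 for Wnt3, chr1:59481897-59482196 for Fzd7, chr11:108920099-108920398 for Axin2 and chr11:87662837-87663136 for Rnf43. Capitals mark a match, on either strand, to the letters CTTTG followed by AA, AT, TA or TT, which TCF and LEF factors bind.
Wnt3: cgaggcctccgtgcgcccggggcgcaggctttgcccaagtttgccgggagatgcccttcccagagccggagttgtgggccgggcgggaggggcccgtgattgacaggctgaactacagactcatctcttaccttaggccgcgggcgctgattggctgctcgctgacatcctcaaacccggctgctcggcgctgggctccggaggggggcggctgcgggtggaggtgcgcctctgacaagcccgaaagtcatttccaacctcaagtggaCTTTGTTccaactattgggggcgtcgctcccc
Fzd7: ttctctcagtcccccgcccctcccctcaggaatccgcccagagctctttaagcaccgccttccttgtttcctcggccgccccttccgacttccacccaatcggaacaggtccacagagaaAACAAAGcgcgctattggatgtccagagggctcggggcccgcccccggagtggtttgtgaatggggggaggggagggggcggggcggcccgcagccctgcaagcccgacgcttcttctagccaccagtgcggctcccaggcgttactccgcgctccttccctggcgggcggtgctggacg
Axin2: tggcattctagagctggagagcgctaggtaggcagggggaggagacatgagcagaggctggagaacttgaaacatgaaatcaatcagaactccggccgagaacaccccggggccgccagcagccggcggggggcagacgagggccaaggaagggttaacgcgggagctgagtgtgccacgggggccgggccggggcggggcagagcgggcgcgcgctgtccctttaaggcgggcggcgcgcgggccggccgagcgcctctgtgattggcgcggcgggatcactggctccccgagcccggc
Rnf43: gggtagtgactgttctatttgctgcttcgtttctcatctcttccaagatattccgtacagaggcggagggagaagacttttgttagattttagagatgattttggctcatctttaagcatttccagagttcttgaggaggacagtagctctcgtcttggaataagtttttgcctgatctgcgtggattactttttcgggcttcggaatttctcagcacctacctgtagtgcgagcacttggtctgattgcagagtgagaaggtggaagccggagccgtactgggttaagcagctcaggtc
The Wnt3 sequence held 1 match, starting 19 bases into the transcript, and the Fzd7 sequence 1 match, starting at position -130 on the opposite strand. The sequences of Axin2 and Rnf43, and those of Fzd5, Nkd1 and the other Rnf43 start, held none. Of the 6 genes with an entry, 2 therefore held a match, beside 18.9% of the 27025 genes and 16.9% of the 32851 promoters in the table. Lrp5, Lrp6, Znrf3 and Ccnd1 had no entry. A match describes the letters in these windows and says nothing of binding.

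The libraries held 90142126 to 189516114 unique molecular identifiers (UMIs, counted molecules). Barcodes with at least 1000 UMIs, at least 500 genes and at most 20% mitochondrial UMIs were kept, which left 1868 to 4722 per library and 17104 in all, with median depths of 3033 to 6728.5 UMIs. This was 9.91% to 34.3% of the barcodes that met the first 2 limits, and the Fpr2VKO libraries, at 9.91%, 23.9% and 14.4%, kept smaller shares than 2 of the 3 Fpr2f/f libraries (22.0%, 34.3% and 29.1%). Free RNA, read from barcodes under 100 UMIs, made up 7.25% to 13.1% of UMIs. Pairs of libraries shared 0 to 23 kept barcodes, where 1.79 to 5.68 would be shared by libraries that drew them evenly and independently. The highest was 23 against 4.54, between Fpr2f/f replicate 2 and Fpr2VKO replicate 1. Pairs among replicates 1 and 2 of both groups shared 8 to 23. The libraries numbered 3 shared 9 against 2.25, and pairs of a number 3 with another number shared 0 to 4. In all, 247 kept barcodes (1.44%) were found in more than 1 library, and leaving them out changed no edgeR call of the 10 genes or of Ascl2. Fpr2 had 0 UMIs in every library of both groups, so its level checked no label. After 3 immune-led clusters (333 cells) were set aside, 16771 epithelial cells remained, of which 256 were stem-like, 2404 TA-like, 2832 enterocyte-like, 1030 Paneth-like, 1950 goblet-like, 597 enteroendocrine-like and 346 tuft-like by their markers. The other 7356 cells fell in clusters without a clear marker set and stayed unnamed. Stem-like cells numbered 12, 26 and 29 in Fpr2f/f against 54, 107 and 28 in Fpr2VKO libraries. Fpr2f/f replicate 1, with 12, was left out of the stem-like fits, which therefore compared 2 libraries with 3.

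Levels are given as CPM: the UMIs of a gene summed over the cells of a class in a library, per 1000000 UMIs of that class and library. The plot of levels by class shows each library. Wnt3 was high in Paneth-like and enteroendocrine-like cells, Axin2, Rnf43, Znrf3 and Fzd7 were highest in stem-like cells, and Fzd5 and Ccnd1 were highest in enterocyte-like and TA-like cells. These class levels are a description, and the orders cover the named classes only. The unnamed cells averaged 250 CPM of Ccnd1, 136 of Fzd5, 56.8 of Axin2 and 35.2 of Lrp5. Single unnamed clusters reached 337 CPM of Ccnd1 and 101 CPM of Axin2. In Paneth-like cells, defensin genes and Lyz1 took 67.4% of all UMIs (62.1% to 72.4% over libraries) against 0.0890% to 0.505% in the other named classes, and the CPM of every other gene in Paneth-like cells is lowered accordingly. Paneth-like levels are therefore also given per 1000000 UMIs outside those genes, called non-defensin CPM.

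**Figure D1:**
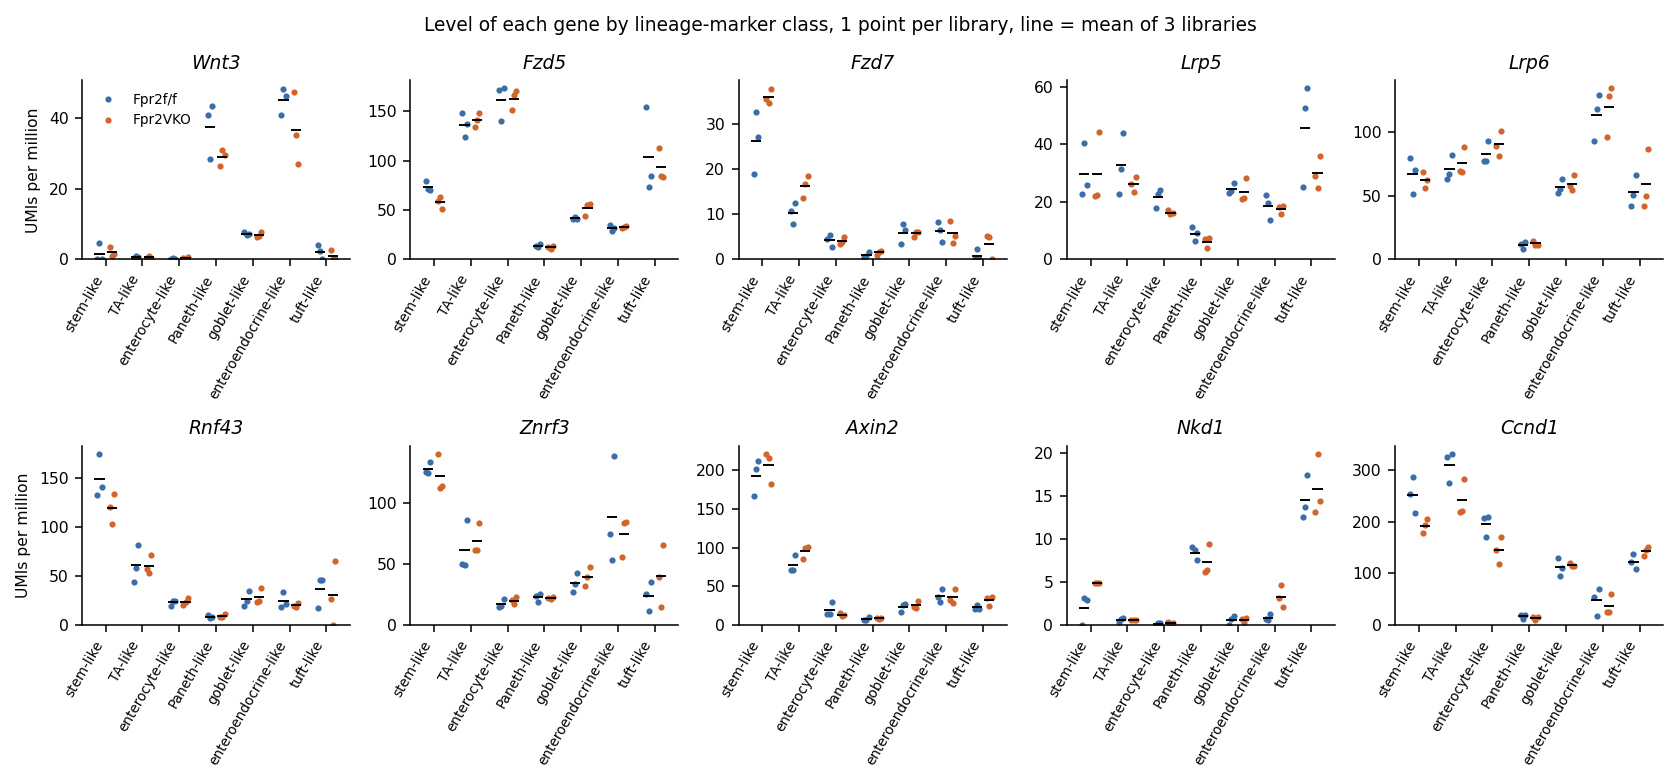
Level of each of the 10 genes (CPM, linear axis from 0) in 7 marker-named cell classes. Each point is 1 library (blue Fpr2f/f, orange Fpr2VKO) and each line the mean of 3 libraries. Wnt3 reached 26.5 to 48.4 CPM in Paneth-like and enteroendocrine-like cells and at most 7.80 CPM elsewhere, while Axin2 reached 167 to 221 CPM in stem-like cells.

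Wnt3, the ligand, averaged 40.9 ± 8.37 CPM in enteroendocrine-like cells and 33.3 ± 7.09 CPM in Paneth-like cells (SD, n = 6 libraries). The level in goblet-like cells was 7.11 CPM, in stem-like cells 1.79, in tuft-like cells 1.52, in TA-like cells 0.622 and in enterocyte-like cells 0.257. Paneth-like cells exceeded goblet-like cells 4.68-fold and TA-like cells 53.5-fold, and did so in 6 of 6 libraries. The Paneth-like and enteroendocrine-like ranges overlapped, with the enteroendocrine-like value higher in 5 of 6 libraries. This order depended on the scale: Paneth-like cells held 102 ± 15.4 non-defensin CPM (77.9 to 122 over libraries) and ranked first. The mean levels of stem-like, tuft-like, TA-like and enterocyte-like cells were below the lowest of the 1.82 to 3.28 CPM measured in free RNA, and the ranges of neighbours in that order overlapped.

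Within these classes Wnt3 was uneven, as the plot of levels by cluster shows. Among Paneth-like cells it was 93.3 CPM in a cluster of 119 cells led by Mmp7, which encodes the protease that activates alpha-defensins, Defa17 and Rnase1, 27.4 CPM in the main deep cluster of 536 cells led by defensin genes, and 16.9 CPM in a cluster of 355 shallow cells (median 3556 UMIs). Among enteroendocrine-like cells it was 76.9 CPM in a cluster of 171 cells led by Kcnb2, Neurog3, the factor that starts endocrine differentiation, and Insm1, 40.5 CPM in one led by the hormone genes Gcg, Cck and Gip and 21.03 CPM in one led by Chgb, Chga and Tac1. In the Mmp7-led cluster the level ran from 68.3 to 129 CPM over the 6 libraries, above the 23.5 to 33.1 CPM of the main Paneth-like cluster in each. These values rest on 12 to 19 cells and 24 to 48 Wnt3 UMIs in 5 of the libraries, and on 46 cells and 96 UMIs in Fpr2f/f replicate 3, the only one plotted for that cluster. The defensin genes and Lyz1 also differed between these clusters and took 31.9% of the UMIs of the Mmp7-led cluster, 74.2% of the main cluster and 51.1% of the shallow one. Per 1000000 UMIs outside them, Wnt3 stood at 137 in the Mmp7-led, 106 in the main and 34.6 in the shallow cluster. On the CPM scale the other 9 genes were also higher in the Mmp7-led than in the main cluster, Znrf3 at 58.1 against 17.1 CPM. Outside the defensin genes Znrf3 was 85.2 against 66.2, Lrp6 41.8 against 34.1 and Ccnd1 59.1 against 31.1, while Fzd5 (31.4 against 36.8) and Nkd1 (17.2 against 29.4) were lower. The 10 genes were left out when clusters were drawn, and these differences are given as a description. By Pearson's r of log2(CPM + 1) over 41 class-by-library sums, the genes with the pattern most like Wnt3 among 8705 genes were Reg4 (0.93), Zbtb10 (0.92) and Pla2g2f (0.91), where points share libraries and depth. This and every r below use plain CPM, so the lowering of other genes in Paneth-like cells enters them. No r was computed on the non-defensin scale.

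**Figure D2:**
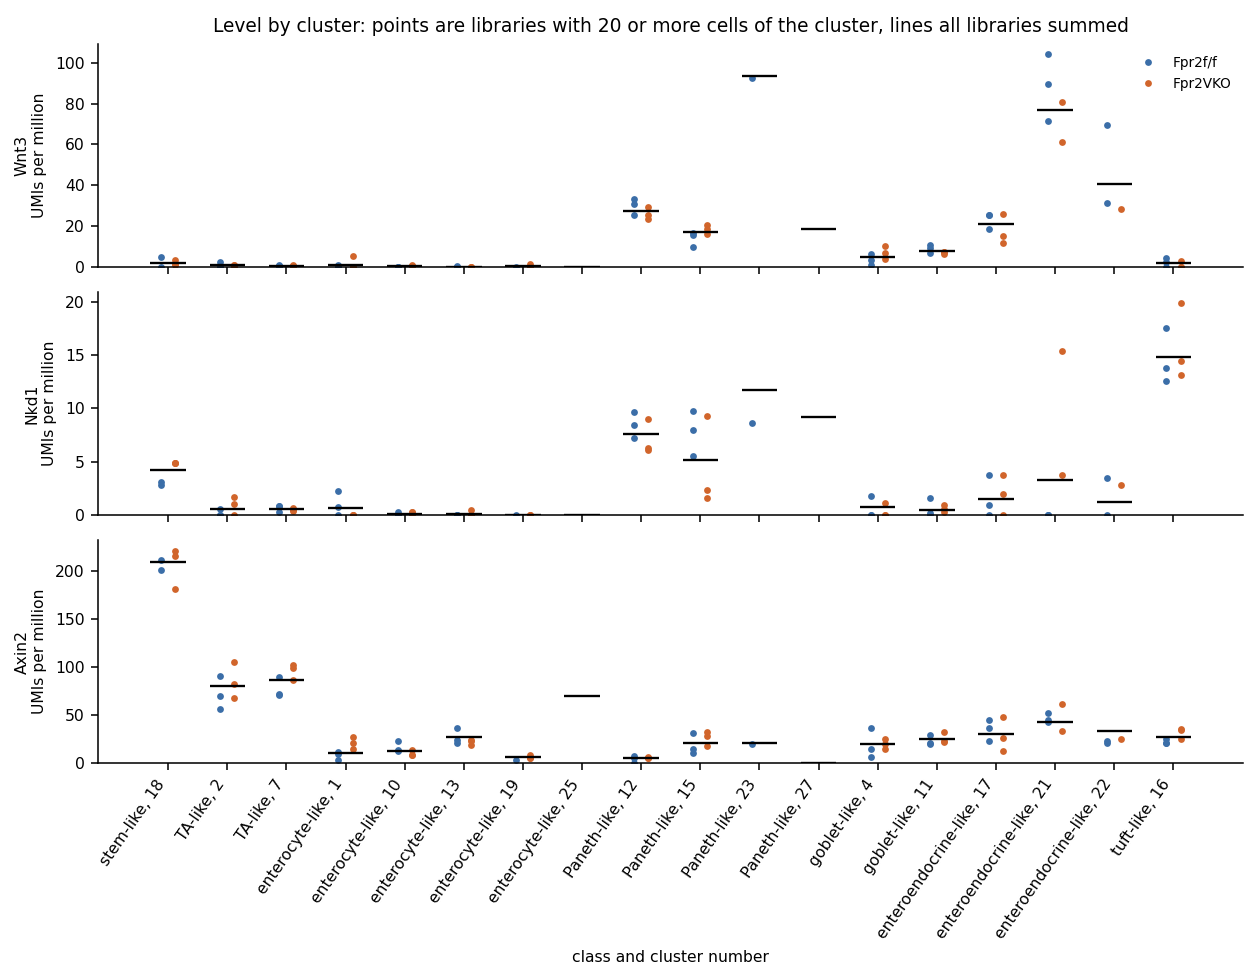
Level of Wnt3, Nkd1 and Axin2 (CPM) in each cluster of the named classes. Points are libraries with 20 or more cells of the cluster (blue Fpr2f/f, orange Fpr2VKO) and lines the level over all libraries summed. Wnt3 stood at 93.3 CPM in Paneth-like cluster 23 and 76.9 CPM in enteroendocrine-like cluster 21, and Axin2 was highest in the stem-like cluster.

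Fzd5, a Frizzled receptor expressed along the intestinal epithelium, averaged 162 ± 13.5 CPM in enterocyte-like cells and 139 CPM in TA-like cells, with the enterocyte-like value higher in 6 of 6 libraries although the ranges overlapped. The level was lower in tuft-like (98.8 CPM), stem-like (65.7), goblet-like (46.6) and enteroendocrine-like cells (31.9), and lowest, at 13.0 CPM, in Paneth-like cells. Enterocyte-like cells exceeded stem-like cells 2.46-fold, in 6 of 6 libraries. The Paneth-like level was 40.2 ± 3.502 non-defensin CPM, on which scale enteroendocrine-like cells were lowest (31.97). Its nearest patterns were those of Pycard (r = 0.97), Cisd3 (0.97) and Ldha (0.96).

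Fzd7, the receptor tied to intestinal stem cells, had another order. It averaged 31.1 ± 6.93 CPM in stem-like cells and 13.3 CPM in TA-like cells, 2.34-fold apart and without overlap of the 6 libraries. It was 5.98 CPM in enteroendocrine-like, 5.84 in goblet-like, 4.13 in enterocyte-like, 2.09 in tuft-like and 1.26 in Paneth-like cells, where neighbours in the order overlapped and free RNA held 2.70 to 4.93 CPM. At 3.98 non-defensin CPM Paneth-like cells stood above tuft-like cells. Its nearest patterns were those of Elmo1, Utp14a and Clca3a2 (r = 0.86 for each).

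The co-receptors varied less between classes. Lrp6 averaged 116 ± 17.9 CPM in enteroendocrine-like cells and 86.4 CPM in enterocyte-like cells, higher in the former in 6 of 6 libraries, and 56.2 to 73.1 CPM in TA-like, stem-like, goblet-like and tuft-like cells, whose ranges overlapped with their neighbours'. In Paneth-like cells Lrp6 stood at 11.8 CPM, or 36.3 ± 5.31 non-defensin CPM, the lowest of the 7 classes on both scales. Lrp5 averaged 37.9 ± 14.9 CPM in tuft-like cells and 18.1 to 29.6 CPM in stem-like, TA-like, goblet-like, enterocyte-like and enteroendocrine-like cells, and neighbours in this order overlapped. Paneth-like cells were lowest on the CPM scale, at 7.55 CPM. At 22.7 ± 5.31 non-defensin CPM they stood above the enterocyte-like (19.0) and enteroendocrine-like cells (18.1). Free RNA held 19.9 to 26.1 CPM of Lrp5. Lrp5 was higher in shallower clusters of some classes. It was 58.4 against 22.9 CPM in the TA-like clusters of 1400 shallower and 1004 deep cells. The goblet-like clusters of 1267 shallower and 683 deep cells held 36.0 against 19.9 CPM. Tuft-like cells were shallow (median 2664.5 UMIs), and the part of depth in their first rank was not tested. The gene patterns nearest to Lrp6 were those of 9930021J03Rik (r = 0.98), Gpatch8 (0.97) and Ptbp3 (0.97), and those nearest to Lrp5 were Rpl36 (0.92), Ndufaf2 (0.91) and Cdc37 (0.90). Paneth-like sums, lowest for both genes on the CPM scale, enter these r values.

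The ubiquitin ligases and Axin2 were highest in the stem-like cluster. Its naming markers left these genes out but were not independent of the pathway. They included Lgr5, Ascl2, Smoc2, Slc12a2, Cdca7, Rgmb and Tnfrsf19, which are in the Wnt receptor and target lists used below. Rnf43 averaged 134 ± 23.6 CPM in stem-like cells against 60.7 in TA-like and 23.1 in enterocyte-like cells, that is 2.21-fold and 5.80-fold more. Znrf3 averaged 125 ± 11.004 CPM in stem-like cells, 65.1 in TA-like and 18.5 in enterocyte-like cells. Axin2, the scaffold of the beta-catenin destruction complex and a standard readout of the pathway, averaged 200.04 ± 21.4 CPM in stem-like cells, 86.3 in TA-like and 16.1 in enterocyte-like cells. For all 3 genes the stem-like value exceeded the TA-like value in 6 of 6 libraries, and the ranges did not overlap. TA-like clusters differed in Rnf43, at 99.5 CPM in 1400 shallower cells and 51.6 CPM in 1004 deep cells, which held more UMIs. In the shallower cluster Rnf43 ran from 55.3 to 115 CPM over libraries, overlapping the stem-like 103 to 174 CPM. Znrf3 (50.7 to 110 CPM) and Axin2 (56.8 to 105 CPM) there stayed below their stem-like ranges.

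Outside the stem and TA classes these 3 genes differed. Znrf3 was also high in enteroendocrine-like cells, at 81.4 CPM (53.1 to 138), which overlapped its stem-like range, where Rnf43 was 22.0 CPM and Axin2 36.3 CPM. In Paneth-like cells Znrf3 stood at 22.2 CPM, and at 68.3 ± 5.14 non-defensin CPM, so that its Paneth-like against TA-like difference changed sign, from below TA-like on the CPM scale to a log2 ratio of 0.07 on the other scale and 0.35 with TMM factors. Rnf43 and Axin2 stayed below the TA-like level in Paneth-like cells on all 3 scales. They held 8.60 and 7.97 CPM there, or 26.5 and 24.7 non-defensin CPM. In goblet-like and tuft-like cells Rnf43 averaged 27.2 and 33.2 CPM, Znrf3 36.8 and 31.8, and Axin2 24.1 and 27.0. Free RNA held 24.5 to 30.4 CPM of Rnf43, 19.0 to 27.3 of Znrf3 and 22.0 to 34.9 of Axin2. Over the 41 sums Axin2 correlated with Znrf3 at r = 0.83, with Fzd7 at 0.82 and with Rnf43 at 0.77. The nearest patterns over all genes were Cdca7 (0.95), Aqp4 (0.94) and Esrrg (0.94) for Axin2, Utp20 (0.89), Nob1 (0.88) and Wdr12 (0.87) for Rnf43, and Cdo1 (0.93), Tspan12 (0.92) and Pola1 (0.89) for Znrf3. Cdca7 and Aqp4 were among the markers that named the stem-like cluster.

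Nkd1, an inhibitor that binds Dishevelled, was a rare transcript with another distribution, at 15.2 ± 2.88 CPM in tuft-like cells and 7.85 CPM in Paneth-like cells. The 6 tuft-like values (12.5 to 19.9 CPM) lay above the 6 Paneth-like values, 1.94-fold in the mean. Stem-like cells followed at 3.44 CPM and enteroendocrine-like cells at 2.06 CPM. TA-like, goblet-like and enterocyte-like cells held 0.145 to 0.564 CPM, below the free RNA level of 0.643 to 1.91 CPM. The 346 tuft-like cells rested on 27 Nkd1 UMIs in all, and the Paneth-like cells on 276. As a mean over cells of the CPM per cell, the tuft-like level was 27.3 ± 12.9. The Paneth-like level was 24.3 ± 4.86 non-defensin CPM, on which scale Paneth-like cells ranked first, and the order of these 2 classes was reversed.

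Ccnd1 averaged 276 ± 48.4 CPM in TA-like cells, 222 in stem-like, 170 in enterocyte-like, 133 in tuft-like and 113 in goblet-like cells, with overlap between neighbours. Enteroendocrine-like cells held 41.8 CPM and Paneth-like cells 14.8 CPM, the latter 18.6-fold below TA-like cells and below them in 6 of 6 libraries. The Paneth-like level was 44.7 ± 7.58 non-defensin CPM, which is above the enteroendocrine-like mean. Free RNA held 58.8 to 100.1 CPM. The nearest patterns were those of Slc16a1, a lactate transporter (r = 0.96), Pgk1, a glycolytic enzyme (0.96), and C1qbp (0.95). Among the 10 genes, Ccnd1 was nearest to Fzd5 (r = 0.88).

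For the genotype comparison, summed UMIs per library were compared with edgeR's quasi-likelihood test, and p-values were adjusted over all genes of a fit by the Benjamini-Hochberg method. A gene was called at an adjusted p under 0.05. Of the 10 genes, 0 were called in any of the 9 fits, and DESeq2 also called 0. Over all epithelial cells, where 10 of 10 were tested, edgeR called 0.0421% of 16629 genes, and 2 of the 10 had an unadjusted p under 0.05 beside 8.98% of all genes. In stem-like cells 8 were tested and 0.0129% of 7729 genes were called, with 2 of the 8 under an unadjusted 0.05 beside 6.21% of all genes. In TA-like cells 8 were tested and 0.106% of 12293 genes were called, with 3 of the 8 under 0.05 beside 7.11%. In Paneth-like cells 9 were tested and 0.0939% of 9588 genes were called, with 0 of the 9 under 0.05 beside 7.79%. In enterocyte-like cells 8 were tested and 0.0258% of all genes were called, with 2 of the 8 under 0.05 beside 8.47%. The tests covered 9 of the genes in goblet-like cells (0.388% of all genes called), 8 in enteroendocrine-like cells (0.0201%), 5 in tuft-like cells (0.159%) and 9 in unnamed cells (0.0156%), with 0 of the 10 genes under an unadjusted 0.05 in these 4 fits, beside 11.1%, 3.22%, 5.82% and 7.65% of all genes. The median log2 fold change of the tested genes among the 10 was 0.11 over all epithelial cells, -0.16 in stem-like, 0.09 in TA-like and -0.13 in Paneth-like cells, beside -0.0055, -0.0049, -0.0024 and -0.0096 over all genes tested. The plot of genotype differences shows the intervals for 4 of the fits. A lack of overlap between 3 and 3 libraries, given below, is a description. It corresponds to an exact two-sided permutation p of 0.10, and the share of all genes without overlap was not counted.

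**Figure D3:**
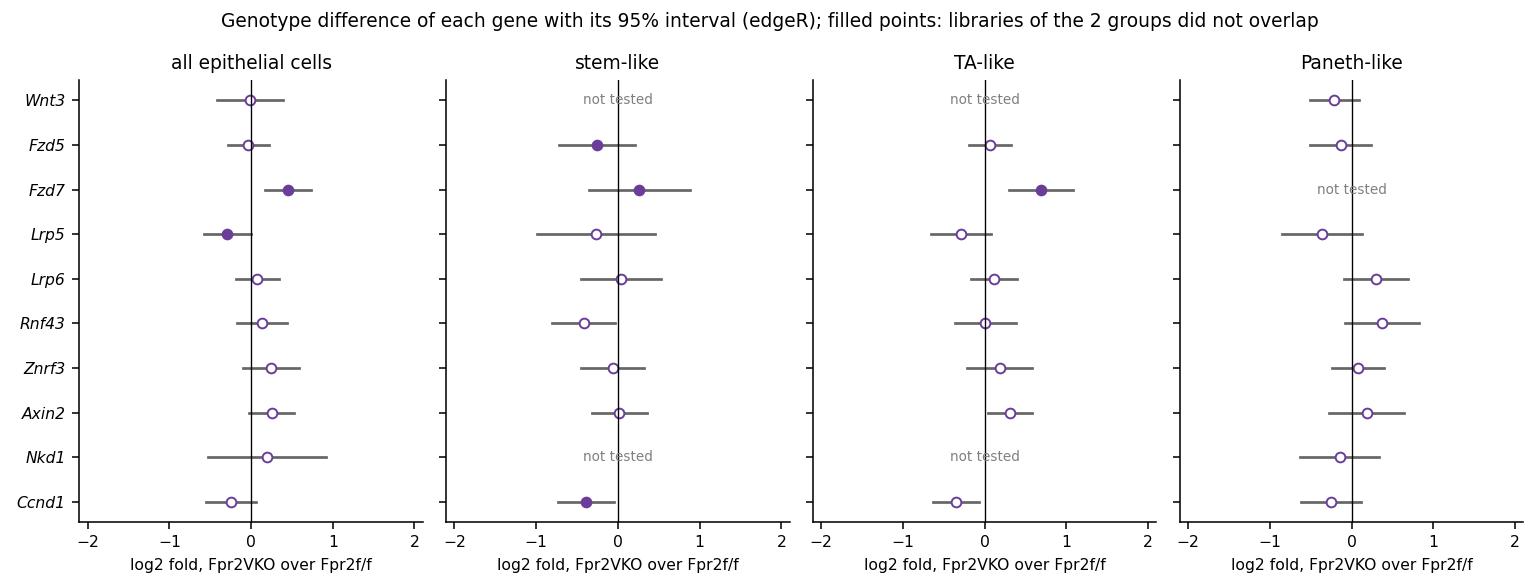
Log2 fold change of each of the 10 genes, Fpr2VKO over Fpr2f/f, in all epithelial cells and in stem-like, TA-like and Paneth-like cells. Points are edgeR estimates, lines their 95% intervals, and filled points mark genes whose libraries did not overlap between groups. Fzd7 lay highest, at 0.69 in TA-like cells, and Ccnd1 lay below 0 in all 4 panels.

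Wnt3 in Paneth-like cells measured 40.9, 28.3 and 43.5 CPM in Fpr2f/f against 26.5, 30.9 and 29.5 CPM in Fpr2VKO libraries. The Fpr2f/f libraries spread more widely, and their lowest value lay within the Fpr2VKO range. The log2 fold change was -0.21 (SE 0.15, 95% interval -0.51 to 0.09, edgeR adjusted p = 0.78). It was -0.10 without Fpr2VKO replicate 1 and -0.37 without Fpr2VKO replicate 2. In enteroendocrine-like cells Wnt3 measured 41.0, 48.4 and 46.4 CPM in Fpr2f/f against 47.3, 35.2 and 27.1 CPM in Fpr2VKO libraries, with overlap and a log2 fold change of -0.26 (SE 0.24, edgeR adjusted p = 0.9987). Over all epithelial cells the estimate was -0.01 (95% interval -0.41 to 0.39), and it turned to 0.58 (edgeR adjusted p = 0.59) at the 10% mitochondrial limit.

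The clusters of the Paneth-like class were not equally filled. The Mmp7-led cluster, with the highest Wnt3 level, gave 11.1%, 5.26% and 19.2% of the Paneth-like UMIs in Fpr2f/f against 7.47%, 3.54% and 7.19% in Fpr2VKO libraries. It gave 35.3%, 17.9% and 40.9% of the Wnt3 UMIs in the former and 19.2%, 11.8% and 22.2% in the latter. With all Paneth-like clusters, the log2 ratio of the group means was -0.37 (37.6 ± 8.11 against 29.0 ± 2.24 CPM). Without that cluster, left out after its level was seen, the libraries measured 29.7, 24.5 and 31.9 CPM in Fpr2f/f against 23.2, 28.3 and 24.8 CPM in Fpr2VKO libraries, and the log2 ratio was -0.18. In the same way, leaving out the Neurog3-led cluster moved the enteroendocrine-like log2 ratio from -0.31 to -0.16. These ratios are of plain CPM, and defensin genes with Lyz1 took 31.9% of the UMIs of the Mmp7-led cluster against 74.2% of the main one. Wnt3 in these clusters stood at 93.3 against 27.4 CPM, but at 137 against 106 outside those genes. The ratio without the Mmp7-led cluster was not computed on that scale. The part of cluster make-up in the genotype difference was not tested.

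The share of cells with a Wnt3 UMI went the other way before depth was equalised. In Paneth-like cells it was 37.5%, 36.1% and 47.6% in Fpr2f/f against 50%, 58.3% and 47.7% in Fpr2VKO libraries. Paneth-like cells were deeper in the Fpr2VKO libraries, with medians of 37120.5, 36121.0 and 24418 UMIs against 8494, 7151 and 14375. With every cell thinned to 2000 UMIs, which left out 71 shallower cells, the shares were 9.59%, 4.60% and 6.75% in Fpr2f/f against 3.77%, 6.22% and 10.1% in Fpr2VKO libraries. The groups then overlapped, at a difference of -0.296 percentage points (exact two-sided permutation p = 0.80, where 3 against 3 libraries allow no p below 0.10). The enterocyte-like share, as a background, before thinning averaged 0.143% in Fpr2f/f and 0.860% in Fpr2VKO libraries, with a median depth of 6392 UMIs against 19504 in Paneth-like cells. Thinned to 1000 UMIs it was 0.0715% and 0.188%, beside 4.02% and 2.39% in Paneth-like cells.

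**Figure D4:**
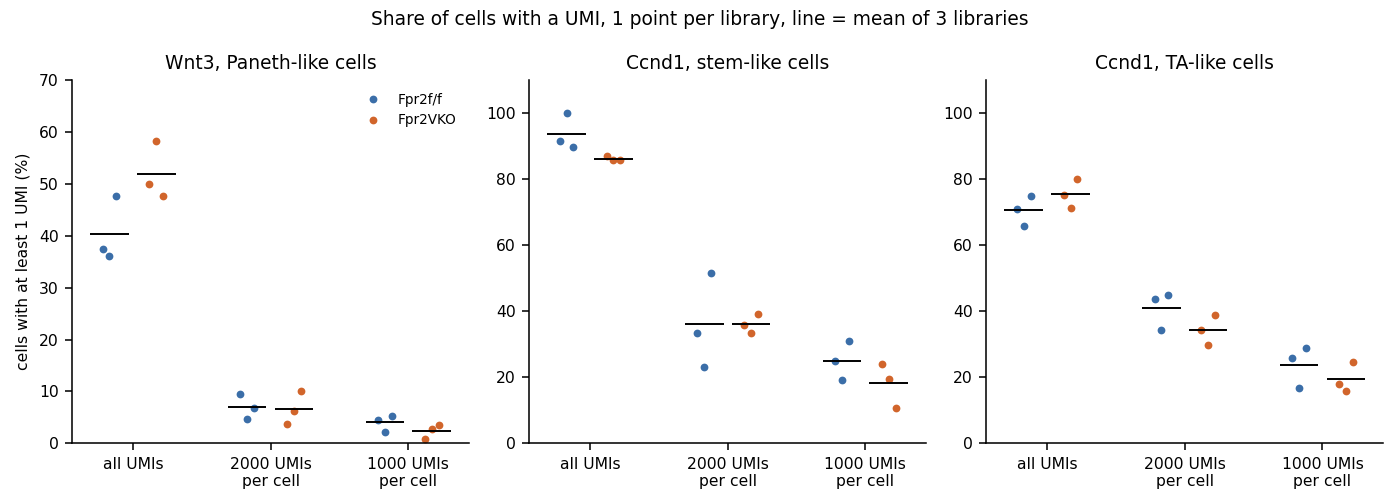
Percent of cells with at least 1 UMI of Wnt3 in Paneth-like cells and of Ccnd1 in stem-like and TA-like cells, with all UMIs and with cells thinned to 2000 or 1000 UMIs. Each point is 1 library (blue Fpr2f/f, orange Fpr2VKO) and each line a mean of 3. For Wnt3 the Fpr2VKO points lie above the Fpr2f/f points only with all UMIs.

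Ccnd1, the cyclin gene, had estimates below 0 in stem-like, TA-like and enterocyte-like cells, none of which passed the test. Its mean level went the other way in tuft-like (122 CPM in Fpr2f/f against 143 in Fpr2VKO) and goblet-like cells (111 against 115). In unnamed cells the means were 253 against 246 CPM, and in enteroendocrine-like cells 47.2 against 36.4 CPM. In stem-like cells it measured 254, 286 and 216 CPM in Fpr2f/f against 178, 193 and 205 CPM in Fpr2VKO libraries. Every Fpr2VKO library lay below every Fpr2f/f library. Without Fpr2f/f replicate 1, which the fit left out, the log2 fold change was -0.39 (SE 0.17, 95% interval -0.73 to -0.04, edgeR adjusted p = 0.73). It was -0.14 without Fpr2f/f replicate 2 as well and -0.61 without replicate 3 as well, where the lone Fpr2f/f library is assumed to vary like the Fpr2VKO libraries. In TA-like cells it measured 325, 274 and 331 CPM against 219, 221 and 283 CPM. Only the highest Fpr2VKO library overlapped with the lowest Fpr2f/f library, and the log2 fold change was -0.35 (SE 0.13, 95% interval -0.64 to -0.07, edgeR adjusted p = 0.56). In enterocyte-like cells the libraries measured 208, 170.1 and 208 CPM against 146, 118 and 169.9 CPM, without overlap (log2 fold change -0.44, SE 0.14, edgeR adjusted p = 0.38). The enterocyte-like class was filled from different clusters. Cluster 19, with the lowest Ccnd1 level among its clusters of over 200 cells (19.4 CPM), gave 6.45%, 11.6% and 5.98% of the class's UMIs in Fpr2f/f against 22.2%, 28.8% and 12.1% in Fpr2VKO libraries, and cluster 13 (278 CPM) gave 50.2% in Fpr2f/f replicate 3. Within cluster 10, which held the most UMIs, Ccnd1 measured 214, 151 and 217 CPM against 159, 125 and 175 CPM, with overlap. Within cluster 13 it measured 322, 353 and 247 CPM against 250, 285 and 228 CPM, also with overlap. Clusters 10 and 13 were picked after their values were seen. The part of cluster make-up in the Ccnd1 difference was not tested. Over all epithelial cells the Ccnd1 estimate was -0.25 (95% interval -0.55 to 0.06), and in Paneth-like cells it was -0.25 (-0.62 to 0.12).

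Shares of cells with a Ccnd1 UMI depended on depth. In TA-like cells 71.0%, 65.8% and 75.1% of cells had a Ccnd1 UMI in Fpr2f/f against 75.1%, 71.2% and 80.2% in Fpr2VKO libraries, where cells were deeper (median 8669 to 12105 UMIs against 6377 to 6888). Thinned to 2000 UMIs, with 106 cells left out, the shares were 43.9%, 34.3% and 45.0% against 34.2%, 29.7% and 39.0%. The difference was then -6.75 percentage points, with overlap (exact two-sided permutation p = 0.20). In stem-like cells the shares before thinning were 91.7%, 100% and 89.7% against 87.0%, 86.0% and 85.7%, without overlap and in the direction of the CPM, at a difference of -7.53 percentage points (exact two-sided permutation p = 0.1, the smallest that 3 against 3 libraries allow). Thinned to 1000 UMIs the difference was -6.95 percentage points, with overlap (exact two-sided permutation p = 0.3). At 2000 UMIs the shares were 33.3%, 23.1% and 51.7% against 35.8%, 33.3% and 39.3%, a difference of 0.111 percentage points (exact two-sided permutation p = 1.0), with as few as 12 cells in a library. In Paneth-like cells, where Ccnd1 is low, the thinned share averaged 4.35% and 6.35%, and in enterocyte-like cells 21.5% and 20.1%.

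Fzd7 differed most by its unadjusted p. Over the epithelium as a whole it measured 7.14, 6.22 and 6.84 CPM in Fpr2f/f against 8.60, 8.75 and 9.33 CPM in Fpr2VKO libraries. Every Fpr2VKO library lay above every Fpr2f/f library, at a log2 fold change of 0.45 (SE 0.13, 95% interval 0.17 to 0.73, edgeR adjusted p = 0.35). In TA-like cells it measured 10.6, 7.88 and 12.5 CPM against 13.6, 16.7 and 18.4 CPM, again without overlap (log2 fold change 0.69, SE 0.19, 95% interval 0.29 to 1.09, edgeR adjusted p = 0.30). In stem-like cells the values were 19.0, 32.6 and 27.2 CPM against 35.4, 34.7 and 37.7 CPM, also without overlap, and the estimate without Fpr2f/f replicate 1 was 0.26 (95% interval -0.36 to 0.89). Over all epithelial cells, the parts of more stem-like cells and of more Fzd7 RNA per cell in the Fzd7 difference were not tested. Stem-like cells, with the highest Fzd7 level, made up 189 of 6720 Fpr2VKO cells and 67 of 10051 Fpr2f/f cells. These shares, 2.81% and 0.667%, depended on how cells were kept and clusters drawn and named. They were 1.32% and 0.896% at the 10% mitochondrial limit, and 9.49% and 5.24% without alignment of the libraries. With a pseudocount of 0.05 in the marker folds they were 9.23% and 10.02%, and the direction turned. The TA-like cells themselves held more of the stem marker list, at 4027 to 4241 CPM over its 11 genes in Fpr2VKO against 2129 to 2397 CPM in Fpr2f/f libraries, and the part of this in the TA-like differences was not tested. At a finer clustering (resolution 2) the TA-like Fzd7 estimate was 0.33. Without a filter on low counts it was 0.71 and Fzd7 was called (edgeR adjusted p = 0.034), beside 0.521% of all genes. With at most 10% mitochondrial UMIs, which kept 340 to 1402 barcodes per library, the estimates were -0.10 over all epithelial cells and -0.01 in TA-like cells.

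Lrp5 leaned the other way. In the sum of all epithelial cells it measured 23.4, 27.2 and 30.3 CPM in Fpr2f/f against 23.2, 18.4 and 22.8 CPM in Fpr2VKO libraries, without overlap, though the nearest libraries were 23.4 and 23.2 (log2 fold change -0.29, SE 0.13, edgeR adjusted p = 0.54). In enterocyte-like cells it measured 18.0, 22.8 and 24.0 CPM against 17.2, 15.7 and 16.0 CPM (log2 fold change -0.41, SE 0.15, edgeR adjusted p = 0.49). Within enterocyte-like cluster 10 it measured 18.2, 20.6 and 22.4 CPM against 14.3, 14.9 and 16.97 CPM. Free RNA of Lrp5 itself separated by genotype in the same direction, at 22.4, 25.5 and 26.1 CPM in Fpr2f/f against 21.9, 19.9 and 20.2 CPM in Fpr2VKO libraries, close to the levels in cells. Its part in the difference was not tested. For Lrp6, the other co-receptor, the 95% interval over all epithelial cells was -0.18 to 0.34, and its groups overlapped in all 4 fits plotted. Fzd5 had an interval of -0.28 to 0.22 over all epithelial cells. Estimates of Lrp5 were -0.27 in stem-like, -0.29 in TA-like and -0.36 in Paneth-like cells, those of Lrp6 were 0.04, 0.11 and 0.29, and those of Fzd5 were -0.25, 0.06 and -0.13. For each of these 9 the 95% interval included 0. The stem-like Lrp5 value depended on the clusters and libraries used: it was -0.77 and called with the naming pseudocount of 0.05 (edgeR adjusted p = 0.016), a fit that called 8.51% of all genes, and it turned to 0.0242 without alignment and to 0.11 without Fpr2f/f replicate 2.

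Of the feedback inhibitors, Rnf43 in stem-like cells measured 133, 174 and 140 CPM in Fpr2f/f against 120, 103 and 133 CPM in Fpr2VKO libraries, where only Fpr2f/f replicate 1 and Fpr2VKO replicate 3 overlapped (log2 fold change -0.42 without Fpr2f/f replicate 1, SE 0.19, edgeR adjusted p = 0.74). The estimate turned to 0.19 without alignment of the libraries and to 0.10 with the naming pseudocount of 0.05. Axin2 in TA-like cells measured 70.7, 71.0 and 90.6 CPM against 85.8, 99.0 and 100.3 CPM (log2 fold change 0.31, SE 0.13, edgeR adjusted p = 0.60), and the estimate was 0.03 at resolution 2. Neither passed the test. In stem-like cells Axin2 measured 167, 202 and 212 CPM against 221, 216 and 182 CPM, at an estimate of 0.02 with a 95% interval of -0.32 to 0.36. Znrf3 had intervals of -0.45 to 0.32 in stem-like and -0.21 to 0.58 in TA-like cells. Nkd1 in Paneth-like cells measured 9.01, 8.67 and 7.59 CPM against 6.13, 6.33 and 9.39 CPM, with overlap (estimate -0.15, 95% interval -0.63 to 0.34). Over all epithelial cells the estimates were 0.14 for Rnf43, 0.25 for Znrf3, 0.25 for Axin2 and 0.20 for Nkd1, in Paneth-like cells 0.37 for Rnf43, 0.08 for Znrf3 and 0.18 for Axin2, and in TA-like cells 0.01 for Rnf43, with intervals that included 0.

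Whether the genotype difference of a gene varied between classes was tested in one edgeR model over TA-like, enterocyte-like, Paneth-like, goblet-like, enteroendocrine-like and tuft-like cells. This test called 0 of the 10 genes, beside 0.00672% of 14874 genes, and gave 1 of them an unadjusted p under 0.05, beside 4.34% of all genes. The smallest unadjusted p was that of Axin2 (0.0068, adjusted p = 0.88), whose estimate was 0.31 in TA-like and -0.59 in enterocyte-like cells. The enterocyte-like values of Axin2 were 13.3, 14.5 and 29.98 CPM in Fpr2f/f against 15.8, 10.8 and 12.1 CPM in Fpr2VKO libraries. Fpr2f/f replicate 3, the library with 50.2% of its class UMIs in cluster 13 (26.8 CPM of Axin2), stood apart. It was also highest within cluster 13, at 36.9 CPM against 18.5 to 23.9, and within cluster 10, at 23.1 against 8.20 to 13.6 CPM. The part of cluster make-up in this was not tested.

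The rest of the pathway was read from lists of 100 further genes: 18 other ligands, 15 other receptors, 4 R-spondins, 3 genes of ligand secretion, 11 secreted inhibitors, 15 signal transducers, 15 nuclear factors and 19 other targets. Over the epithelium as a whole 76 of the 100 were tested and edgeR called 1, Ascl2, as higher, beside 0.0421% of all genes. Of these 76, 13 had an unadjusted edgeR p under 0.05, beside 8.98% of all genes. In TA-like cells 59 were tested and 1, again Ascl2, was called as higher, beside 0.106%. Of these 59, 8 had an unadjusted edgeR p under 0.05, beside 7.11% of all genes. In stem-like (47 tested) and Paneth-like cells (49 tested) 0 were called by edgeR. Of the 47, 2 had an unadjusted edgeR p under 0.05, and of the 49, 9, beside 6.21% and 7.79% of all genes. No test of the lists as a set was run. The median log2 fold change of the tested list genes was 0.03 over all epithelial cells, -0.02 in stem-like, 0.04 in TA-like and 0.06 in Paneth-like cells.

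Ascl2, the transcription factor that specifies intestinal stem cells and itself a Wnt target (chromosome 7, 142966829 to 142969264), measured 13.2, 12.8 and 14.6 CPM in the TA-like cells of the Fpr2f/f libraries and 31.6, 24.3 and 24.9 CPM in those of the Fpr2VKO libraries. The groups did not overlap, at a log2 fold change of 1.01 (SE 0.15, edgeR adjusted p = 0.0091). In the sum of all epithelial cells it measured 6.34, 6.004 and 8.07 CPM against 16.6, 12.5 and 12.7 CPM (log2 fold change 1.08, SE 0.15, edgeR adjusted p = 0.047). In stem-like cells it measured 83.4, 79.2 and 88.7 CPM against 108, 86.5 and 91.9 CPM, at 0.20 (SE 0.21, edgeR adjusted p = 0.96) without Fpr2f/f replicate 1. Ascl2 was among the stem markers that named clusters, and the 11 genes of that list together stood at 4027 to 4241 CPM in the TA-like cells of Fpr2VKO against 2129 to 2397 CPM in those of Fpr2f/f libraries. The part of this, and of the stem-like share given above, in the Ascl2 values was not tested. The call over all epithelial cells was lost without Fpr2f/f replicate 2 (log2 fold change 1.03, edgeR adjusted p = 0.13) and without Fpr2VKO replicate 1 (0.97, 0.16), 2 (1.11, 0.082) or 3 (1.15, 0.058). It was also lost without marked doublets (1.07, edgeR adjusted p = 0.053), at mitochondrial limits of 10% (0.63, 0.45) and 40% (0.93, 0.051) and at 2000 or more UMIs (1.05, 0.076). In TA-like cells it was lost without Fpr2f/f replicate 2 (0.98, edgeR adjusted p = 0.14) or Fpr2VKO replicate 1 (0.88, 0.087), with finer clusters (0.61, 0.83) and at the 10% mitochondrial limit (1.26, 0.9993).

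With the replicate number as a block, the count over all epithelial cells was 4 (Ascl2, the stem cell receptor gene Lgr5, Slc12a2 and Sfrp5), and in TA-like cells it was 5 (those genes and Smoc2). All were higher in Fpr2VKO. The block raised calls among all genes as well, from 0.0421% to 0.301% over all epithelial cells and from 0.106% to 1.12% in TA-like cells. In stem-like cells the blocked fit called 0 genes of the lists, beside 0.401% of all genes. These genes were named after their values were seen. Of them, 4 (Ascl2, Lgr5, Slc12a2 and Smoc2) were stem markers of the naming list, as were Tnfrsf19 and Rgmb, called in fits below. Lgr5 measured 16.6, 20.6 and 29.4 CPM in Fpr2f/f against 46.5, 40.3 and 46.8 CPM in Fpr2VKO libraries over all epithelial cells, without overlap (log2 fold change 1.04 and edgeR adjusted p = 0.15 without the block). The block was not needed for this call: without it, Lgr5 over all epithelial cells was called by DESeq2 (1.05, adjusted p = 2.7e-05), by edgeR without a filter on low counts (1.06, adjusted p = 2.1e-06) and by edgeR without Fpr2f/f replicate 1 (0.86, 0.017) or 3 (1.29, 0.023). Both DESeq2 and the fit without a filter also called Slc12a2 (0.69 and 0.70), Sfrp5 (0.92 and 0.93) and Tnfrsf19 (0.84 and 0.85), a target gene of the receptor family of tumour necrosis factor, as higher over all epithelial cells. Calls among all genes rose in these fits too, to 0.65% with DESeq2, 0.628% without a filter and 0.658% without Fpr2f/f replicate 1, while the fit without replicate 3 called 0.0174%. In TA-like cells without the block, DESeq2 called Slc12a2 (0.63) and Sfrp5 (1.36) beside 0.244% of all genes, and the fit without a filter called Slc12a2 (0.65), Sfrp5 (1.37) and Tnfrsf19 (0.84) beside 0.521%. Lgr5 (1.59) and Slc12a2 (0.65) were called there without Fpr2f/f replicate 3 (0.158% of all genes) and Sfrp5 (1.60) without Fpr2VKO replicate 3 (0.195%). Within stem-like cells Lgr5 measured 539, 503 and 412 CPM against 554, 453 and 433 CPM, with overlap (log2 fold change 0.08, edgeR adjusted p = 0.99). In Paneth-like cells the blocked fit called 2, the receptor-like gene Bambi as higher and Cd44 as lower, beside 0.198% of all genes. Bambi was also called there without Fpr2f/f replicate 2 (1.11, beside 0.31% of all genes) and without a filter on low counts (0.69, beside 0.22%). Calls in other alternatives included Smoc2, Rgmb and Slc12a2 in stem-like cells without alignment (0.4% of all genes), Ascl2, Lgr5, Sox9, Slc12a2 and Sfrp5 in stem-like cells with the naming pseudocount of 0.05 (8.51%), all as higher, Cd44 as lower in enterocyte-like cells without a filter (0.942%), and Cd44 and Ephb3 as lower in unnamed cells without Fpr2f/f replicate 1 (2.05%).

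From each list, the gene with the highest CPM is named for the stem-like and Paneth-like classes, without scaling to gene length. In stem-like cells these were Slc12a2 among other targets (1396 ± 259 CPM), Lgr5 among other receptors (482 ± 58.2), the kinase gene Csnk1a1 among signal transducers (439 ± 39.1), Tcf7l2 among nuclear factors (165 ± 21.6), Wls, needed to release Wnt proteins, in ligand secretion (99.5 ± 19.9), and Sfrp5 among secreted inhibitors (59.9 ± 15.002). In Paneth-like cells they were Csnk1a1 (118 ± 26.1), the R-spondin receptor gene Lgr4 (82.5 ± 17.04), Sox9, a factor needed for Paneth cells (80.6 ± 22.2), Tcf7l2 (77.8 ± 18.2), Wls (22.6 ± 4.003) and Kremen1 (2.78 ± 0.823). All of these overlapped between genotypes. Slc12a2 and Lgr5 were among the markers that named the stem-like cluster. Among the 18 other ligands, the highest was Wnt5b at 4.09 ± 2.19 CPM in stem-like cells and Wnt5a at 1.43 ± 0.731 CPM in Paneth-like cells. Rspo3 in stem-like cells (1.04 CPM) and Rspo2 in Paneth-like cells (0.481 CPM) were the highest R-spondins, genes that stromal cells are known to supply.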

How the data were processed

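Droplet single-cell RNA sequencing of ileal crypt epithelial cells was analysed in 3 Fpr2f/f and 3 Fpr2VKO libraries. The deposited values were raw UMI counts per gene and barcode, which the authors had made with the MobiVision pipeline against mm10, without a cell filter. Seurat 4.0.0 is named in the study's methods for the later steps. Here barcodes with at least 1000 UMIs, 500 genes and at most 20% mitochondrial UMIs were kept. Principal components (30, from 2000 variable genes without the 10 genes described) were aligned across libraries and clustered (leidenalg 0.10.2, resolution 1, scikit-learn 1.9.0, Python 3.11.15). Clusters were named from marker lists by a mean log2 fold of at least 0.5. The pseudocount of 1 in that fold was chosen after cluster names had been seen. Marked doublets were kept, and leaving them out was an alternative.

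UMIs were summed per class and library and tested with edgeR 4.0.16 (R 4.3.3; quasi-likelihood test, TMM factors, filterByExpr, Benjamini-Hochberg over all genes of a fit). Libraries with fewer than 20 cells of a class were left out of its fit. Shares of cells were compared by exact permutation over libraries (SciPy 1.17.1) after thinning to 2000 UMIs. The edgeR fit over all epithelial cells was tested on simulated data with 200 changed genes. The edgeR fits within classes and the model over classes were not. Same-numbered libraries correlated in their deviations at r = 0.10, 0.12 and 0.53 over 6155 genes. Crossed numbers 1 and 2 gave similar values (0.09 and 0.15). Number 3 of one group correlated with numbers 1 and 2 of the other at -0.29 to -0.19. Kept barcodes were shared more within the same sets, as given above. The labels do not say what a number or these sets share, and the main fits do not take them into account. A fit with the number as a block is given as an alternative. None was run with numbers 1 and 2 set against 3. Other alternatives were DESeq2 1.42.0, other normalization and filters, each library left out, and other clusterings.

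The 10 genes, the marker lists and the pathway lists were chosen with earlier results of these data known. By rule, the text names the 10 genes in every named class. It gives their genotype folds, where tested, over all epithelial cells and in stem-like, TA-like and Paneth-like cells. It also names pathway genes called in a fit, or highest of their list in stem-like or Paneth-like cells. For each of the 10 genes with at least 20 CPM in a class it names the 3 nearest patterns. Genotype folds in other classes were chosen after their values were seen. Counting intervals are not given for single libraries, and differences between libraries carry more than counting error.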

Additional observations from a re-analysis of the deposited data

Results flagged for a closer look

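Fzd5 was flagged by rule because its libraries did not overlap between genotypes in a pair of classes, in opposite directions. The share of all genes with such a pattern was not counted, so the flag is a description. In stem-like cells it measured 79.7, 71.4 and 70.1 CPM in Fpr2f/f and 59.0, 63.5 and 50.9 CPM in Fpr2VKO libraries, and the log2 fold change without Fpr2f/f replicate 1 was -0.25 (SE 0.23, edgeR adjusted p = 0.94). In goblet-like cells it measured 41.2, 43.1 and 40.9 CPM against 43.9, 54.6 and 56.2 CPM, at 0.23 (SE 0.14, edgeR adjusted p = 0.55). Neither passed the test, and the difference between these 2 classes was not tested. The model over the 6 classes without stem-like cells gave Fzd5 an unadjusted p of 0.69 for a genotype effect that differs between classes. At a finer clustering the stem-like value was 0.04.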

How the results depend on the processing

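Of the 10 genes, 0 were called in every fit that left out 1 library. Among the other alternatives 1 was called in stem-like cells with a naming pseudocount of 0.05, chosen after seeing the data (Lrp5, -0.77, edgeR adjusted p = 0.016, beside 8.51% of all genes), and 1 in TA-like cells without a filter on low counts (Fzd7, 0.71, edgeR adjusted p = 0.034, beside 0.521%). The replicate block changed no call of the 10 genes. Pathway genes called over all epithelial cells numbered 5 without a filter, 5 with DESeq2 and 4 with the replicate block, where 0.628%, 0.65% and 0.301% of all genes were called. They numbered 0 without doublets, at mitochondrial limits of 10% or 40% and at 2000 or more UMIs, and 0 to 3 with 1 library left out (3 without Fpr2f/f replicate 1, 2 without replicate 3, and 0 without Fpr2f/f replicate 2 or any Fpr2VKO library). The reversals that follow are of log2 fold changes that did not pass the test, and the cause was not tested. Over all epithelial cells Wnt3 was 0.0061 without a filter, 0.0142 with the block and 0.0001 without barcodes found in more than 1 library, an alternative chosen after seeing the data. Other clusterings left the sum of all epithelial cells as it was. At the 10% mitochondrial limit Wnt3 was 0.58, Fzd7 -0.0953, Lrp6 -0.0759, Rnf43 -0.17 and Axin2 -0.11 over all epithelial cells, and Fzd5 was -0.17, Fzd7 -0.0136 and Lrp6 -0.0461 in TA-like cells. In stem-like cells the block gave Lrp6 -0.016 and Axin2 -0.054. There, clustering without alignment gave Lrp5 0.0242, Lrp6 -0.0485, Rnf43 0.19 and Znrf3 0.22, resolution 2 gave Fzd5 0.0408 and Znrf3 0.0993, the naming pseudocount of 0.05 gave Rnf43 0.10 and Znrf3 0.43, and the 40% limit gave Axin2 -0.0633. In TA-like cells Rnf43 was -0.009 without doublets, -0.0055 at the 40% limit and -0.14 at resolution 2. With 1 library left out, the ranges that crossed 0 were -0.19 to 0.13 for Wnt3, -0.0914 to 0.0365 for Fzd5 and -0.0995 to 0.55 for Nkd1 over all epithelial cells. In stem-like cells they were -0.60 to 0.11 for Lrp5, -0.13 to 0.26 for Lrp6, -0.19 to 0.0086 for Znrf3 and -0.0389 to 0.099 for Axin2. In TA-like cells Rnf43 ran from -0.17 to 0.22, and in Paneth-like cells Fzd5 from -0.19 to 0.0089 and Nkd1 from -0.33 to 0.16. The difference in the share of cells, in percentage points, was 11.6 for Wnt3 in Paneth-like cells without thinning and -1.98 to 1.16 with 1 library left out. For Ccnd1 in stem-like cells it was -6.95 at 1000 UMIs, -7.53 without thinning and -6.37 to 7.95 with 1 library left out, and for Ccnd1 in TA-like cells it was 4.87 without thinning. Nkd1 in tuft-like cells was 27.3 CPM as a mean over cells. The Paneth-like over TA-like log2 ratio of Znrf3 was 0.0696 outside the defensin genes and 0.35 with TMM factors. Stem-like and tuft-like cells could not be fitted at the 10% limit, where too few cells were left. Few stem-like cells and few UMIs of Wnt3, Nkd1 and Fzd7 outside their main classes limit what the libraries can show.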

Other observations

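Nkd1 in enteroendocrine-like cells measured 0.640, 0.590 and 1.25 CPM in the Fpr2f/f libraries and 3.15, 4.64 and 2.08 CPM in the Fpr2VKO libraries. The groups did not overlap, but the values rest on 16 UMIs in all and the gene was below the filter on low counts, so it was not tested. Free RNA held 0.643 to 1.91 CPM. This gene and class were chosen after their values were seen.

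Among Paneth-like clusters, Axin2 was 5.57 CPM in the main cluster of 536 deep cells, 21.4 CPM in the Mmp7-led cluster and 20.95 CPM in the cluster of shallow cells, each over all libraries summed, beside 22.0 to 34.9 CPM in free RNA. Outside the defensin genes the same clusters stood at 21.6, 31.4 and 42.9 CPM of Axin2 and 29.4, 17.2 and 10.5 CPM of Nkd1.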
